A study of Mus musculus with 6 samples.

Results

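The genes described here encode enzymes that activate long-chain fatty acids and place them into membrane phospholipids. They are 4 long-chain acyl-CoA synthetases (Acsl1, Acsl3, Acsl4 and Acsl5), 5 lysophospholipid acyltransferases (Lpcat1, Lpcat3, Mboat1, Mboat2 and Mboat7) and Agps, an enzyme of ether lipid synthesis. The 10 genes were selected on their enzymatic role in setting the polyunsaturated lipid pool, listed by symbol, and found through the gene names of the authors' table of the comparison. They make up 10 of the 16909 genes with a count. The list was drawn up when results of the same comparison were already known, Mboat7 among them, so the members were in part chosen with the counts of these 6 libraries in view. The values below describe these genes and are not independent evidence for any of them.

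The samples were cells labelled MLE-12, an immortalised mouse lung epithelial line, wild type, grown in one culture model of lung ischaemia and reperfusion. All 6 libraries came from cells kept in 1% oxygen for 12 h and then returned to 21% oxygen for 4 h, and the labels place them in a single batch. The labels name no pretreatment for the I/R group (3 libraries). The I/R + Dex group (3 libraries) had been given 10 µM dexmedetomidine, a sedative that activates alpha-2 adrenergic receptors, for 12 h before the hypoxia. Untreated cells, and cells given dexmedetomidine without hypoxia, were not analysed here, so each value compares pretreated with unpretreated cells after the same hypoxia and reoxygenation. Below, the groups are called unpretreated (I/R) and pretreated (I/R + Dex) cells. Per the labels, the replicates of a group are biologically independent, and all are of this line.

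Total counts per library lay between 2333546 and 2941989, and 11473 to 12332 genes had a count. At this depth, 3 counts, taken as the limit that a count of 0 allows, correspond to 1.02 to 1.29 CPM (counts scaled by TMM-adjusted library size), and this covers counting error only. Of the fixed markers of epithelial cells, 8 of 12 were at 0 in every library, among them Krt8 and Krt18, and the summed level of all 12 was 1.53 to 2.76 CPM in unpretreated cells and 0 to 2.32 CPM in pretreated cells. Of the alveolar type II markers, 6 of 10 were at 0 throughout, the surfactant protein genes Sftpa1, Sftpb, Sftpc and Sftpd among them (summed level 8.62 to 20.3 and 6.15 to 17.4 CPM). Abca3, another of these markers, was counted in every library, at 3.95 to 17.4 CPM, and held most of that sum. None of 10 fibroblast markers was at 0 throughout, and their summed level was 899 to 1050 CPM in unpretreated cells and 915 to 1110 CPM in pretreated cells. Vim, at 401 to 580 CPM, and Fn1, at 351 to 455 CPM, held most of that sum, while Lum had 2 counts in a single library and Pdgfrb had 2 in each of 2. The collagen genes Col1a1, Col1a2 and Col3a1 were counted in every library, at 14.5 to 34.8, 15.5 to 27.9 and 20.6 to 29.8 CPM. The identity of the cells as lung epithelium therefore rests on the labels. The 6 endothelial markers, of which Tek was at 0, summed to 2.32 to 6.12 CPM in unpretreated cells and 6.65 to 12.3 CPM in pretreated cells, without overlap. Of single counted genes, 7.08% had groups without overlap. The nearest libraries were I/R replicate 1 (6 counts of Pecam1, 5 of Kdr, 5 of Cldn5) and I/R + Dex replicate 3 (12, 2 and 2). The separation of these 2 libraries thus rests on the scaling. None of the 6 endothelial markers had enough counts to be tested. The 8 leukocyte markers summed to 21.2 to 27.6 and 25.8 to 33.3 CPM, and the 6 alveolar type I markers, 3 of them at 0, to 0 to 3.44 and 0 to 3.32 CPM. The part of these markers in the results below was not tested. In bulk RNA, fewer cells of a type and less RNA per cell cannot be told apart.

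A free fatty acid enters lipid metabolism once an acyl-CoA synthetase has joined it to coenzyme A. Phospholipids are then remodelled in the Lands cycle, in which a phospholipase removes a fatty acid and a lysophospholipid acyltransferase puts another one, often polyunsaturated, in its place. Polyunsaturated chains are the ones that peroxidise during ferroptosis, a cell death driven by iron, and ACSL4 and LPCAT3 are the classical enzymes that load arachidonic acid into the phospholipids concerned. The type II cell of the lung also depends on this cycle, since LPCAT1 makes the disaturated phosphatidylcholine of surfactant. The title of the series names ferroptosis as the process of interest.

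Of the 10 genes, Mboat7 alone passed the test across all genes between the groups, and it fell by 2.48 on the log2 scale after dexmedetomidine. Acsl3, Acsl4 and Lpcat3 were the most highly expressed of the 10 in both groups and had fold changes whose intervals included 0. Acsl1 and Acsl5 were expressed at a low level, and Lpcat1, Mboat1, Mboat2 and Agps had too few counts for the filter. Most of the Lpcat3 counts, and the Mboat7 counts of 2 libraries, lay on transcripts annotated with a retained intron.

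Those transcripts hold stretches that the coding ones lack, which are shown here because much of the signal of Lpcat3 and Mboat7 in individual libraries was assigned to them. The sequences come from the GENCODE vM21 transcripts on build GRCm38, in transcript orientation. Lower case marks coding bases shared with the coding transcript, and capitals mark bases absent from it.
Mboat7-205, chr7:3685599-3685709, minus strand: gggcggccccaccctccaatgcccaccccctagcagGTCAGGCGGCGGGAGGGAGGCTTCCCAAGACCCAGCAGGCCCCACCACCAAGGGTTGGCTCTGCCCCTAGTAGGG
Lpcat3-205, chr6:124700065-124700276, plus strand: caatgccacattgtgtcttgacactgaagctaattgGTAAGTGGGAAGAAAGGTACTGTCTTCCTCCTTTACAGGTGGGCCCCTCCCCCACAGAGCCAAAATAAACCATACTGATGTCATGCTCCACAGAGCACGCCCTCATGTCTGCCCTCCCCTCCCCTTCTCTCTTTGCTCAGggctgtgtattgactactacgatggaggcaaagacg
Lpcat3-206, chr6:124699310-124699501, plus strand: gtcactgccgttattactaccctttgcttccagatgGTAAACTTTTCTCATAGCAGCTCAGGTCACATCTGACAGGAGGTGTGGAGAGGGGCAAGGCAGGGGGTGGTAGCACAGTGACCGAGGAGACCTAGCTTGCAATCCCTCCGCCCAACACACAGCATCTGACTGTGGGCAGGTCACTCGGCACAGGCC

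In Mboat7-205 the stretch is 1688 bases long, of which the first 75 are shown, and Mboat7-201 is the coding transcript it was compared with. A second stretch of 451 bases in Mboat7-205 is not shown. In Lpcat3-205 and Lpcat3-206 the stretches are 140 and 156 bases long and are shown whole, against Lpcat3-201. Each stretch shown starts with GT, the first bases of an intron at a splice donor. Read in the frame of the coding transcript, each of these holds a stop codon, TAG at base 68 of the Mboat7-205 stretch, TAA at base 66 of that of Lpcat3-205 and TGA at base 34 of that of Lpcat3-206.

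The long-chain acyl-CoA synthetases differed widely in level. Acsl4 (chr X:141100989-141173531 in GRCm39, minus strand) encodes the synthetase that prefers arachidonic and adrenic acid. It had 234, 300 and 223 counts in the unpretreated libraries and 243, 213 and 253 in the pretreated libraries. The groups overlapped, and no library stood apart. At 93.0 ± 9.17 and 97.6 ± 6.50 CPM (SD, n = 3 each), the log2 fold change of pretreated over unpretreated cells was 0.07 with a 95% interval from −0.22 to 0.36. All counts of Acsl4 lay on the coding transcript Acsl4-201.

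Acsl3 (chr1:78635542-78685460, plus strand), a synthetase of the endoplasmic reticulum and lipid droplets that also activates monounsaturated fatty acids, had the highest mean FPKM of the 10 in both groups. Its range in FPKM overlapped that of Lpcat3 in both groups, and their order depends on the gene length used. Acsl3 had 321, 298 and 292 counts in unpretreated cells and 289, 183 and 193 in pretreated cells. I/R + Dex replicate 1 lay within the range of the unpretreated group on the CPM scale and the other pretreated libraries lay below it. Its log2 fold change was −0.31 (95% interval −0.70 to 0.08; edgeR quasi-likelihood test with Benjamini-Hochberg adjustment, adjusted p = 1.00), from 112.8 ± 10.0 to 90.8 ± 18.3 CPM (SD, n = 3 each). The coding transcript Acsl3-201 held every count except 28 of the 193 in I/R + Dex replicate 3, which lay on the retained-intron transcript Acsl3-206, named after its values were seen.

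Acsl1 (chr8:46924074-46989088, plus strand) encodes a broadly acting synthetase that feeds both triglyceride synthesis and mitochondrial oxidation. It had 13, 18 and 21 counts in unpretreated cells and 31, 23 and 20 in pretreated cells. In CPM these are 4.97, 6.21 and 8.11 against 12.0, 10.1 and 8.31, so all pretreated libraries lay above all others, the nearest of them being at 8.31 and 8.11 CPM. Its log2 fold change was 0.65 ± 0.37 (SE, 95% interval −0.22 to 1.52) and it did not pass the test (edgeR adjusted p = 1.00). Among all tested genes, 9.13% had groups that did not overlap in this way.

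Acsl5 (chr19:55241801-55286152, plus strand), a synthetase of mitochondria and endoplasmic reticulum, varied more within groups than between them. It had 49, 7 and 5 counts in unpretreated cells and 40, 27 and 4 in pretreated cells, and its range was almost the same in both groups. The log2 fold change of 0.33 had a 95% interval from −2.23 to 2.90, and its sign turned when single libraries were left out. It became −0.09 without I/R replicate 2, −0.12 without I/R replicate 3 and −0.19 without I/R + Dex replicate 1.

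**Figure D1:**
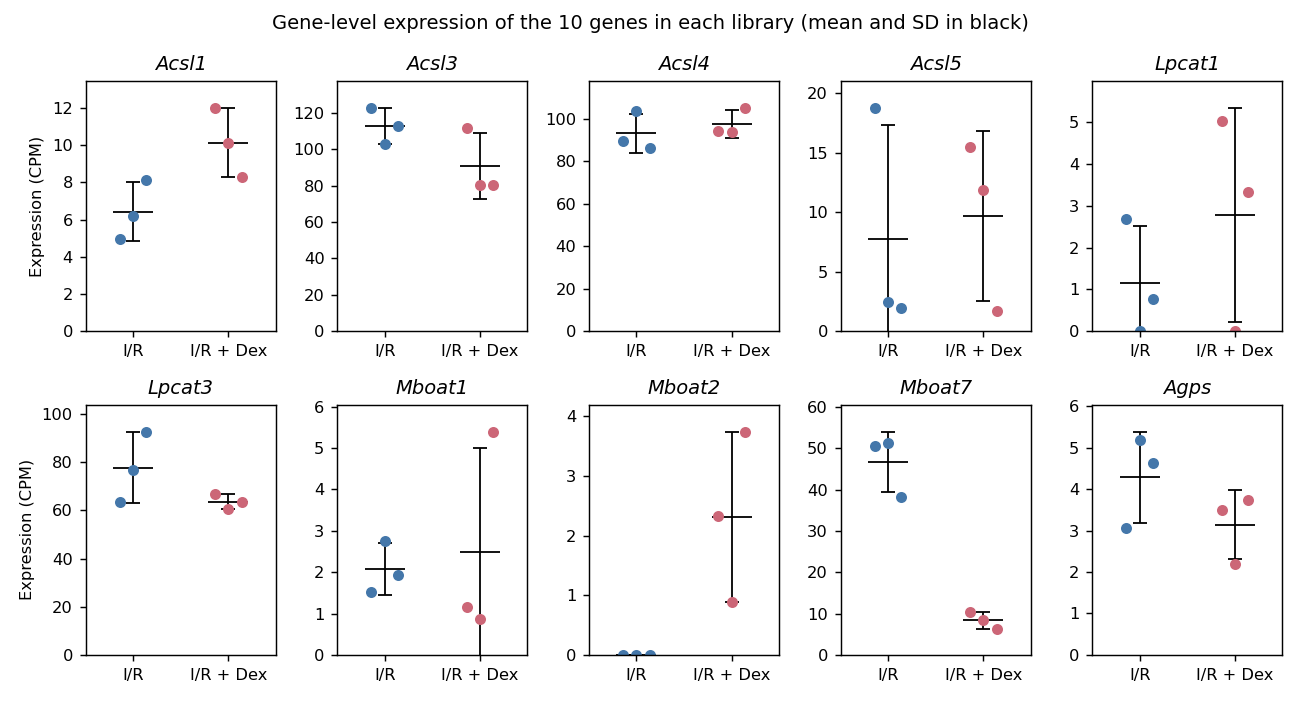
Expression of the 10 genes in each library, in CPM on a linear axis that starts at 0, with the unpretreated libraries in blue, the pretreated libraries in red, and the mean and SD of each group (n = 3) in black. The Mboat7 points lie at 38.2 to 51.4 CPM in unpretreated cells and 6.23 to 10.5 CPM in pretreated cells, while Acsl3, Acsl4 and Lpcat3 overlap between the groups.

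Among the lysophospholipid acyltransferases, Mboat7 showed the one difference that passed the threshold. Mboat7 (chr7:3680788-3696522, minus strand), also called LPIAT1, places arachidonic acid into lysophosphatidylinositol and so gives phosphatidylinositol its usual acyl chain. It had 132, 149 and 99 counts in unpretreated cells and 27, 19 and 15 in pretreated cells, or 50.5, 51.4 and 38.2 CPM against 10.5, 8.35 and 6.23 CPM. The highest pretreated library was well below the lowest unpretreated library. The mean fell from 46.7 ± 7.35 to 8.35 ± 2.11 CPM (SD, n = 3 each), a 5.60-fold difference.

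The log2 fold change of Mboat7 was −2.48 ± 0.27 (SE, 95% interval −3.10 to −1.85; edgeR adjusted p = 0.0421), the fifth lowest p of 7412 tested genes. In the same test 5 genes were called, 0.0675% of those tested, 2 of them lower in pretreated cells (0.027%). The call was close to the threshold. It stood in DESeq2 (adjusted p = 2.56e-07), which called 17 genes (0.196%), and did not stand in limma voom (adjusted p = 0.171), in limma on log2(FPKM + 1) (0.108), or in edgeR when any one of the 6 libraries was left out, where the adjusted p ranged from 0.0914 to 0.147 and the log2 fold change from −2.67 to −2.31.

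The transcript assignment of the Mboat7 counts varied between libraries of a group. Mboat7-201, the coding transcript, held 18, 148 and 98 counts in unpretreated cells and 26, 18 and 0 in pretreated cells. Mboat7-205, with the retained stretch shown above, held 111 counts in I/R replicate 1 and 14 in I/R + Dex replicate 3, and 0 in the others. Thus 1 library of each group had its counts mainly on the retained-intron transcript, and in the other libraries they lay almost wholly on the coding one.

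Retained-intron transcripts together held 86.4% of the Mboat7 counts in I/R replicate 1 (exact Clopper-Pearson 95% interval 79.3 to 91.7%) and 100% in I/R + Dex replicate 3 (78.2 to 100%). These intervals cover counting error only and leave out any error in assigning counts to a form. In the remaining libraries the retained-intron share was 0.671 to 5.26%. Over all genes, transcripts of this kind held 6.62 to 7.15% of the counts of a library. With such a spread, the log2 fold change of Mboat7-201 alone, −2.40, had an interval from −6.02 to 1.22 (edgeR over 9882 transcripts, adjusted p = 1.00). In that test 0 transcripts were called, 0% of those tested, and 289 (2.92%) had an unadjusted p under 0.05, while DESeq2 called 73. The forms share exons, and the sources used here do not say how reads were divided between them.

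The nearest genes on each side of Mboat7 in the authors' table were Cnot3 and Rps9, and their intervals did not reach its fold change. Cnot3, a subunit of the CCR4-NOT deadenylase whose gene ends 16680 bases away, had 831, 918 and 817 counts in unpretreated cells and 756, 705 and 820 in pretreated cells, with a log2 fold change of −0.01 (95% interval −0.20 to 0.18). Rps9, a ribosomal protein gene 10469 bases away on the other side, had 113, 92 and 62 counts against 114, 66 and 67, with a log2 fold change of 0.03 (−0.65 to 0.72). Tsen34, which overlaps Mboat7 on the opposite strand by 277 exonic bases in the reference annotation and was named after its values were seen, had 2 counts in I/R replicate 1 and 0 in the others. Tmc4, which lies between Cnot3 and Mboat7 in the reference annotation and was also named after its values were seen, had 4 counts in I/R + Dex replicate 1 and 0 in the others. The sources used here do not say whether the counting used strand, and without strand the reads of such overlaps cannot be told apart.

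**Figure D2:**
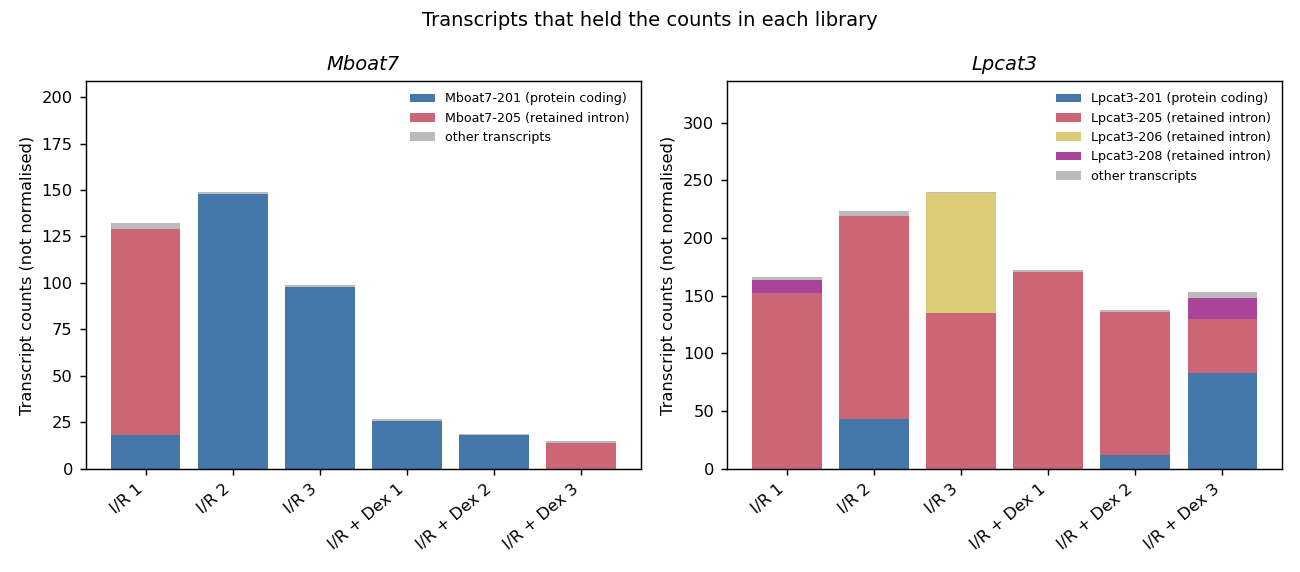
Counts per library (linear axis from 0, not normalised) of the transcripts of Mboat7 and Lpcat3, stacked by transcript, with coding transcripts in blue and transcripts with a retained intron in red, yellow and purple. The height of the Mboat7 bars separates the groups, at 99 to 149 against 15 to 27 counts, while the form that holds them changes in I/R replicate 1 and I/R + Dex replicate 3.

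Lpcat3 (chr6:124639990-124681381, plus strand), which puts arachidonic and linoleic acid into phosphatidylcholine and phosphatidylethanolamine, did not pass the test. It had 166, 223 and 240 counts in unpretreated cells and 172, 138 and 153 in pretreated cells, and the groups overlapped. The level was 77.7 ± 14.6 CPM in unpretreated cells and 63.6 ± 3.01 CPM in pretreated cells (SD, n = 3 each), and the log2 fold change was −0.29 (95% interval −0.68 to 0.10; edgeR adjusted p = 1.00). The retained-intron transcript Lpcat3-205 held 152, 176 and 135 counts in unpretreated cells and 171, 124 and 47 in pretreated cells.

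The coding transcript Lpcat3-201 had 43 counts in I/R replicate 2, 12 and 83 counts in I/R + Dex replicates 2 and 3, and 0 in the other libraries. Lpcat3-206, another retained-intron form, had 104 counts in I/R replicate 3 and 0 elsewhere. Lpcat3-208 had 12 counts in I/R replicate 1 and 18 in I/R + Dex replicate 3. Retained-intron transcripts thus held 80.7% to 100% of the Lpcat3 counts in unpretreated cells and 45.1% (37.1 to 53.3%, exact interval for counting error only), 91.3% and 100% in pretreated cells.

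For the Lpcat3 transcripts above the filter, Lpcat3-205 and Lpcat3-201, the test of transcript usage gave an edgeR adjusted p = 1.00. Lpcat3-206 and Lpcat3-208 were below the filter, and with all 6 counted transcripts the edgeR adjusted p = 0.686. In the usage test with the filter, 25 of 1717 genes were called, 1.46%, and 3.26% had an unadjusted p under 0.05. Mboat7 had 1 transcript above the filter and was not in that test. It entered without a filter, with 5 transcripts, and without I/R replicate 2, I/R replicate 3, I/R + Dex replicate 1 or I/R + Dex replicate 2, with 2 transcripts, and edgeR gave an adjusted p = 1.00 in each. Emg1 overlaps Lpcat3 on the opposite strand by 334 exonic bases in the reference annotation and had 12 to 27 counts in unpretreated cells and 17 to 36 in pretreated cells. It is a nucleolar methyltransferase gene, and was named after its values were seen.

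The remaining acyltransferases were near the limit of detection. Mboat2 (chr12:24881608-25014396, plus strand) inserts mainly monounsaturated chains into lysophosphatidylethanolamine. It had 0 counts in each unpretreated library and 6, 2 and 9 in the pretreated libraries. All pretreated libraries were thus above all others. However, 0.878 CPM in I/R + Dex replicate 2 is less than what a count of 0 allows in the unpretreated libraries. That limit is 1.02 to 1.15 CPM by total counts. The mean of 2.31 CPM in pretreated cells was at least 2.08-fold higher than the 1.11 CPM that 3 counts per library would give in unpretreated cells. The gene was below the filter, and without a filter it did not pass the test (edgeR adjusted p = 0.858, and 0.849 to 0.999 under the alternatives that gave one). Among all genes with a count, 0.248% were at 0 in every unpretreated library and above 0 in every pretreated library, and 7.08% had groups without overlap in either direction.

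Mboat1 (chr13:30320472-30430700, plus strand), an enzyme that prefers oleic acid and lysophosphatidylserine or lysophosphatidylethanolamine, had 4, 8 and 5 counts in unpretreated cells and 3, 2 and 13 in pretreated cells. Its highest and its lowest library were both pretreated. Without a filter its log2 fold change was 0.26 (95% interval −2.01 to 2.54), and it was −0.99 without I/R + Dex replicate 3. All its counts lay on Mboat1-201.

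Lpcat1 (chr13:73615316-73664541, plus strand), the enzyme of surfactant phosphatidylcholine in type II cells, had 7, 0 and 2 counts in unpretreated cells and 13, 0 and 8 in pretreated cells. One library of each group was at 0. The log2 fold change without a filter was 1.27 with an interval from −1.64 to 4.19. The low level of Lpcat1 stands beside the surfactant protein genes at 0, and Abca3 at 3.95 to 17.4 CPM, given above.

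Agps (chr2:75662521-75761694, plus strand) encodes the peroxisomal enzyme that forms the ether bond of plasmalogen precursors. It had 8, 15 and 12 counts in unpretreated cells and 9, 5 and 9 in pretreated cells. The groups overlapped, at 4.29 ± 1.10 and 3.14 ± 0.83 CPM (SD, n = 3 each), and the log2 fold change without a filter was −0.44 (95% interval −2.03 to 1.15).

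In all, 6 of the 10 genes were tested, 1 was called lower and 0 were called higher. In CPM, 3 of the 10 had groups without overlap, Acsl1 and Mboat2 higher and Mboat7 lower in pretreated cells, beside 7.08% of all counted genes and 9.13% of tested ones. The calls stand beside 0.0675% of tested genes. Of the 6 tested genes 3 had a log2 fold change above 0, and their median was −0.11, beside −0.01 over all tested genes. The interval was narrowest for Acsl4 among the 10, and for Acsl5, Lpcat1, Mboat1 and Agps it reached beyond 1 log2 unit in either direction.

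**Figure D3:**
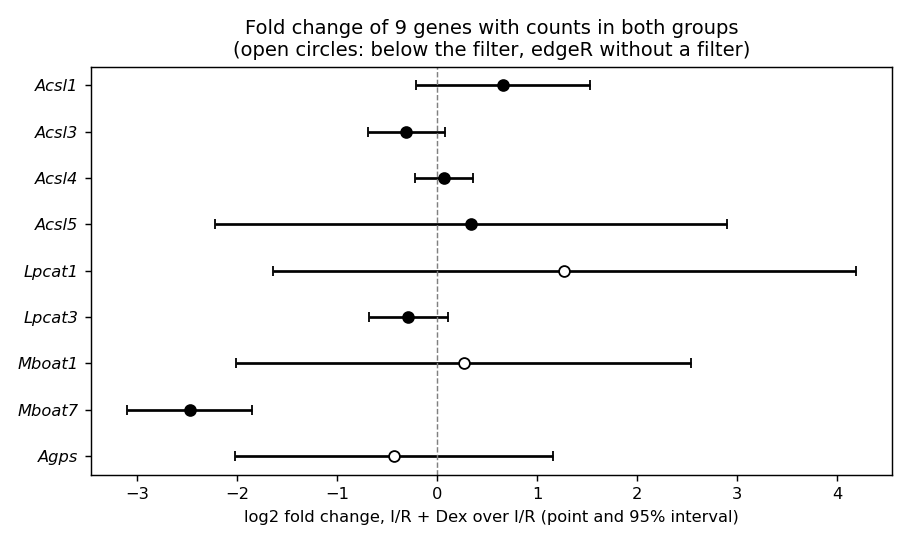
Log2 fold change of pretreated over unpretreated cells with its 95% interval for the 9 genes with counts in both groups, on a linear axis of log2 units, with open circles for the genes below the filter, fitted without it. The interval of Mboat7, −3.10 to −1.85, lies wholly below 0 and each of the other 8 includes 0. Mboat2, at 0 counts in unpretreated cells, is not drawn, and its interval without a filter, 1.15 to 10.1, lies above 0.

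Levels were compared between genes in the authors' FPKM, which divides by gene length and library size. In unpretreated cells the order was Acsl3 at 25.6 ± 2.21 FPKM, Lpcat3 at 23.5 ± 4.50, Acsl4 at 17.0 ± 1.69, Mboat7 at 5.54 ± 0.86 and Acsl5 at 1.56 ± 1.94 FPKM (SD, n = 3 each). Acsl3 and Lpcat3 overlapped between libraries, as did all neighbours from Acsl5 down, while Lpcat3, Acsl4 and Mboat7 were each separated from the gene next below. The other 5 genes had mean levels of 0 to 0.607 FPKM.

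In I/R + Dex, Acsl3 (20.7 ± 4.04 FPKM), Lpcat3 (19.3 ± 0.90) and Acsl4 (18.0 ± 1.36) overlapped with one another and lay above all the rest. Acsl5 followed at 1.97 ± 1.45 FPKM and Mboat7 at 0.993 ± 0.24 FPKM, next to Acsl1 at 0.961 ± 0.17 FPKM, and all neighbours from Acsl5 down overlapped. The gene length implied by the FPKM was longer than the main transcript for every member, for Mboat7 8335 bases against 2878 for Mboat7-201, and for Acsl1 10478 against 3897. The FPKM of these 2 genes is therefore low for the transcript that holds most of their counts, and their place in the order depends on that length. The order of Acsl3 and Lpcat3 depends on it too, at 4355 bases against 3950 for Acsl3-201 and 3266 against 2373 for Lpcat3-205.

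The authors' deposited table of the comparison lists 14 transcripts of these genes among 18021, and none of them is among the 104 that it marks as significant. In the authors' deposited table Mboat7-201 had mean levels of 10.98 FPKM in unpretreated cells and 2.04 FPKM in pretreated cells, a log2 fold change of −2.42 with an adjusted p of 1. For Mboat2-204 the authors' deposited table gives 0 and 0.335 FPKM with an adjusted p of 0.243. The difference in Mboat7 was thus called over the gene and not over any one of its transcripts.

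The wider pathway was followed in 8 further lists with 174 distinct genes, of which 143 had a count and 78 were tested. None was called in edgeR, in DESeq2 or in limma. An unadjusted p under 0.05 was reached by 5 genes (6.41%), against 251 (3.39%) of all tested genes, and 8 genes (10.3%) had groups without overlap, against 9.13% of all tested genes. The median log2 fold change over the 78 was −0.05.

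Mboat7 makes its product from lysophosphatidylinositol, so phosphatidylinositol synthesis and phosphorylation are the nearest neighbours of its reaction. Of 25 such genes 17 were tested and 9 had a fold change above 0 (median 0.04). Cdipt, the phosphatidylinositol synthase, had 270, 316 and 225 counts in unpretreated cells and 206, 179 and 158 in pretreated cells. Its groups did not overlap in CPM and its log2 fold change was −0.42 (95% interval −0.75 to −0.08; edgeR adjusted p = 1.00). Cds2, which makes the CDP-diacylglycerol that Cdipt uses, had a log2 fold change of 0.17 with an interval from −0.10 to 0.45. Neither gene passed the threshold.

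Among 24 other acyltransferases of glycerolipids 11 were tested, 5 of them above 0, with a median of −0.08. Dgat1, which makes triglyceride from diacylglycerol, had 66, 53 and 34 counts in unpretreated cells and 17, 2 and 17 in pretreated cells. The groups did not overlap, at 18.9 ± 6.08 and 4.84 ± 3.44 CPM (SD, n = 3 each), with a log2 fold change of −1.94 (95% interval −3.45 to −0.43; edgeR adjusted p = 1.00). Gpat4, a glycerol-3-phosphate acyltransferase, had 56, 54 and 44 counts against 81, 53 and 53. Its pretreated libraries all lay above the others in CPM, and its log2 fold change was 0.43 (−0.13 to 0.98). For Lpgat1 it was 0.53 (−0.28 to 1.34) and for Agpat3, the most abundant of the list and a lysophosphatidic acid acyltransferase, it was −0.11 (−0.45 to 0.24).

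Of 25 other acyl-CoA synthetase and acyl-CoA-binding genes, 16 had a count and 3 were tested. Acss2, the cytosolic acetyl-CoA synthetase, was the most abundant of them, at 45.1 ± 18.1 CPM in unpretreated cells and 41.0 ± 4.57 CPM in pretreated cells (SD, n = 3 each). The log2 fold change was −0.14 for Acss2, −0.06 for Acbd3 and 1.02 for Dbi, the acyl-CoA-binding protein, whose counts were 6, 0 and 12 against 10, 8 and 16. Each of the 3 intervals included 0.

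The ether lipid list held 14 genes beside Agps, 7 of them tested and 3 above 0 (median −0.04). Pex5, the receptor that imports peroxisomal enzymes, had 98, 101 and 91 counts in unpretreated cells and 77, 48 and 63 in pretreated cells, without overlap in CPM, and its log2 fold change was −0.48 (95% interval −0.94 to −0.01; edgeR adjusted p = 1.00). Far1, which supplies the fatty alcohol for the ether bond, was the most abundant, at 205 ± 32.6 and 238 ± 32.9 CPM (SD, n = 3 each), and its log2 fold change was 0.22 (−0.14 to 0.57). For Cept1, which adds the head group, it was −0.34 (−0.78 to 0.10).

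Desaturases and elongases, which make the chains that the synthetases activate, had 21 genes, 11 tested and 3 above 0, with a median of −0.24. Elovl6, an elongase of saturated and monounsaturated chains, was the most abundant of them, at 43.2 ± 6.03 and 38.6 ± 7.62 CPM (SD, n = 3 each). Elovl5, the elongase of polyunsaturated chains, had 14, 15 and 14 counts in unpretreated cells and 19, 0 and 4 in pretreated cells. The log2 fold change was −0.79 (−3.19 to 1.61) for Elovl5, −0.40 (−1.29 to 0.48) for Scd2, a delta-9 desaturase, and −1.41 (−5.01 to 2.19) for Elovl4, an elongase of very long chains.

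The phospholipases, which open the Lands cycle, had 30 genes, 14 tested and 8 above 0 (median 0.04). Pla2g12a, a secreted phospholipase A2, had 32, 21 and 11 counts in unpretreated cells and 7, 9 and 2 in pretreated cells, with groups that did not overlap in CPM and a log2 fold change of −1.65 (95% interval −3.26 to −0.03; edgeR adjusted p = 1.00). Pafah1b1, the non-catalytic subunit of an acetylhydrolase of platelet-activating factor, was the most abundant, and its unpretreated libraries lay above the others with a log2 fold change of −0.05 (−0.17 to 0.07). For Pnpla8 and Ddhd2, an intracellular phospholipase A2 and a phospholipase A1, it was −0.31 (−0.82 to 0.19) and 0.37 (−0.24 to 0.99).

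Of 15 genes for enzymes that form or remove lipid peroxides, 5 were tested and 3 lay above 0. Cyb5r1, an oxidoreductase that can drive phospholipid peroxidation, had 127, 3 and 4 counts in unpretreated cells and 6, 165 and 158 in pretreated cells, so that high and low libraries occurred in both groups. Its log2 fold change of 1.46 had an interval from −2.22 to 5.13. Gch1, which starts tetrahydrobiopterin synthesis, had −0.22 (−0.86 to 0.43), and Gpx4, the glutathione peroxidase of phospholipids, had 399, 637 and 473 counts against 418, 337 and 378.

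Of 21 genes of mitochondrial fatty acid oxidation, which consumes the same acyl-CoA pool, 11 were tested and 5 lay above 0 (median −0.05). Cpt1a, which admits acyl chains to mitochondria, had 22, 30 and 28 counts in unpretreated cells and 11, 11 and 18 in pretreated cells, without overlap in CPM and with a log2 fold change of −0.83 (−1.75 to 0.08; edgeR adjusted p = 1.00). Echs1 had 0, 0 and 18 counts against 59, 11 and 16. Etfa and Etfdh, the electron carriers of the pathway, had log2 fold changes of −0.08 (−0.66 to 0.50) and −0.28 (−0.77 to 0.21).

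**Figure D4:**
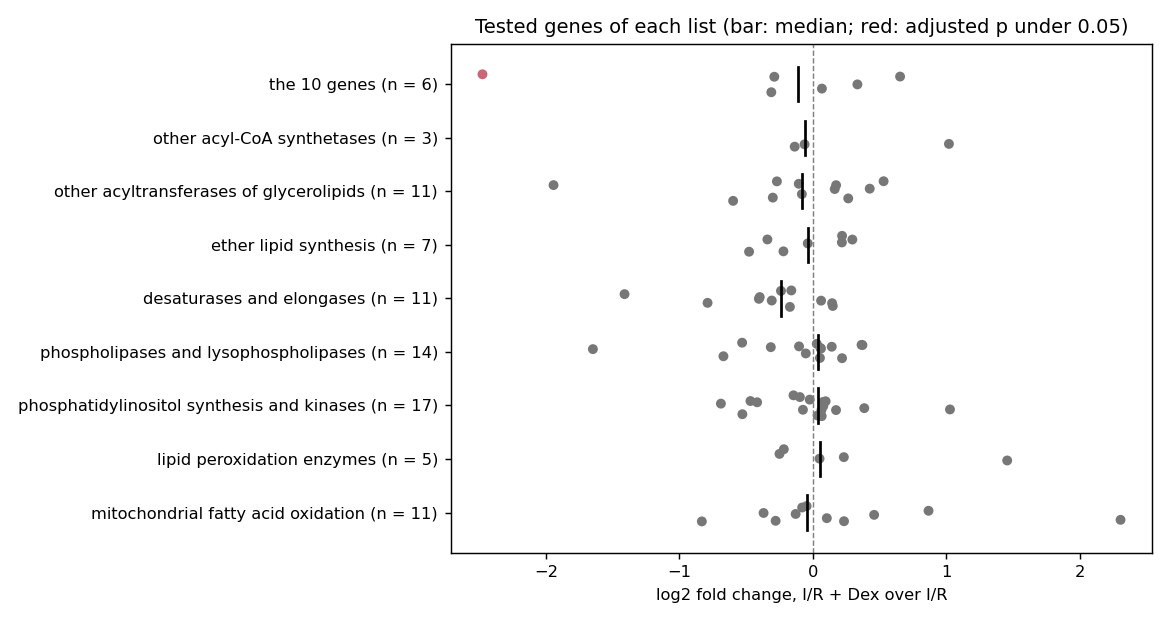
Log2 fold change of pretreated over unpretreated cells (linear axis) of each tested gene of the 10 and of the 8 further lists, one point per gene, with a bar at the median of each list and red for an adjusted p under 0.05 in edgeR. Mboat7 at −2.48 is the one red point, and the medians of the lists lie between −0.24 and 0.05.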

How the data were processed

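The authors deposited raw counts per gene and per transcript, per the file headers, along with FPKM tables made by the authors. Build GRCm39 and the tools HISAT2 2.1.0, StringTie 2.2.4 and DESeq2 1.30 are named, with no role, per the submitters' processing notes. Of the assignment of reads to transcripts and the use of strand the sources used here say nothing. Gene counts of the 10 genes equalled the sums of their transcripts. The authors' deposited table gives log2 fold changes and p-values per transcript, per the file headers.

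The main test was edgeR 4.0.16 under R 4.3.3 (filterByExpr, TMM, robust quasi-likelihood test, Benjamini-Hochberg adjustment over all tested genes, threshold 0.05), after a check on simulated data. Transcripts were tested alike, and their usage with diffSpliceDGE. Alternatives used DESeq2 1.42.0, limma 3.58.1, other scalings, filters and designs, and each library left out. Near-identical copies were searched with blastn 2.17.0 among GENCODE vM21 transcripts (90% identity over at least 200 bases and 50% of the transcript).

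The members and lists were chosen with earlier results of these data known. Named were all members, list genes that were called, the 3 with the lowest p and the most abundant of each list, up to 4 transcripts per member with a mean of at least 5 counts, and the nearest gene of the authors' table on each side of Mboat7. A gene that this rule names is not reported here. P-values set a difference against the spread among 3 libraries per group, which edgeR estimates with information shared across genes.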

Additional observations from a re-analysis of the deposited data

How the results depend on the processing

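The count of called genes, 5 in edgeR, was 17 in DESeq2, 1 in limma voom, 8 and 3 in limma on log2(FPKM + 1) and log2(FPKM + 0.1) after a filter at 1 FPKM, and 0 to 4 without single libraries. With the replicate number as a block it was 0, and the adjusted p of Mboat7 was 0.411. Over all tested genes, samples sharing a number did not deviate together (r = 0.023, -0.01 and -0.004). Such a correlation can miss a pairing that affects few genes, so it does not decide whether the numbers pair samples. Transcript calls, 0 at first, numbered 12 without a filter, 73 in DESeq2 and 0 to 3 without single libraries. Usage calls, 25 at first, numbered 10 without a filter, 3 with the block and 30 to 50 without single libraries. The direction of Mboat7 held in every alternative run, with an adjusted p from 2.56e-07 (DESeq2) to 0.411 (block). Acsl5 turned to -0.09, -0.12 and -0.19 without I/R replicate 2, I/R replicate 3 and I/R + Dex replicate 1, with a range of -0.19 to 2.13 over the 6 omissions, and Mboat1 to -0.10 with the block and -0.99 without I/R + Dex replicate 3 (range -0.99 to 0.66). The cause was not tested. No near-identical copy was found for any of the 10 genes, so adding copies gave no further value. Depth limits Lpcat1, Mboat1, Mboat2 and Agps, each under 6 CPM in every library.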
